A study of Mus musculus with 10 samples.

Results

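Mutant p53 was set against absence of p53 in thymi that lack mdm2, over all 23332 features of the array. The mutant samples were 2 thymi labelled p53(246/246) mdm2(-/-), here called mutant p53, and their comparison samples were 2 thymi labelled p53(-/-) mdm2(-/-), here called p53-null. These are 4 of the 10 samples of the series. The other 6 had the same p53 genotypes with wild-type mdm2, 3 mutant p53 and 3 p53-null. All tissues were normal thymus of mice 4 to 5 weeks old on a mixed C57BL6/129 background, and no sample carried wild-type p53. The labels give the mutant allele only by the number 246, and they do not say which part of mdm2 was removed. They do not state that replicates were separate animals, so the p-values below measure only the spread between these samples. The 2 mutant p53 mdm2-null arrays share a name prefix that no other sample has, and so do the 2 p53-null mdm2-null arrays, so that p53 genotype and array set cannot be told apart in this comparison.

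p53 is a transcription factor that halts the cell cycle or triggers apoptosis after damage, and thymocytes are among the cells in which it kills most readily. Mdm2 is a ubiquitin ligase that targets p53 to the proteasome and is itself induced by p53, and mice without Mdm2 survive development only when p53 is disabled. Missense forms of p53 lose most activation of the usual targets, accumulate when Mdm2 is absent, and have been reported to act through other factors, such as SREBP at the genes of sterol synthesis. The comparison asks which thymic transcripts differ when mutant p53, rather than no p53, is present and Mdm2 cannot degrade it.

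No feature passed the test. limma with Benjamini-Hochberg adjustment called 0 of 23332 features (0%) at an adjusted p under 0.05, and the smallest adjusted p was 0.785. At an unadjusted p under 0.05 there were 902 features (3.87%), 370 higher (1.59%) and 532 lower (2.28%) with mutant p53. The 2 mutant p53 samples lay wholly above the 2 p53-null samples in 3000 features (12.9%) and wholly below them in 3456 (14.8%), together 27.7%. All counts of non-overlapping genes below are to be read against these shares, or against 13.6% higher and 13.1% lower among the 14847 genes with a feature of their own. The median standard error of a log2 difference was 0.19 and the median 95% interval reached 0.44 to either side, while the median size of a difference was 0.13. Without p53-null replicate 1 the count of calls was 5, 2 higher and 3 lower, and without p53-null replicate 2 it was 4, all lower. Since nothing passed with all samples, the genes below are described by their values.

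The 4 samples did not sort by p53 genotype in their largest variation. Across all features the 2 mutant p53 samples correlated at 0.978, and the 2 p53-null samples also at 0.978. Pairs of 1 sample of each genotype correlated at 0.98 to 0.985, so that samples of unlike genotype were no less alike than replicates. The closest pair was mutant p53 replicate 2 and p53-null replicate 2, with 679 features 2-fold or more apart, against 1070 between the mutant p53 replicates and 982 between the p53-null replicates. Of the variation among these 4 samples, 40.3% lay along a component that set the replicates numbered 1 apart from those numbered 2. A second component, with 35.2%, cut across both groupings. It set mutant p53 replicate 1 and p53-null replicate 2 apart from mutant p53 replicate 2 and p53-null replicate 1. The third, with 24.5%, set the genotypes apart. At least 1.5-fold differences were seen in 1132 features (4.85%), 871 of which have no gene symbol in the platform annotation. Features without a symbol make up 31.4% of the array and 34 of the 40 smallest p-values, and they varied more within groups, with a median SD of 0.3 against 0.16 for features with 1 symbol. The 2 features of smallest adjusted p, both at 0.785, are of this kind. Feature 4975502 read 6.03 and 5.53 in the mutant p53 samples, against 7.17 and 7.01 in the p53-null samples, a log2 difference of -1.31 (95% interval -1.73 to -0.90). Feature 4307112 read 6.29 and 6.49 in mutant p53 and 7.24 and 7.45 in p53-null thymi, a difference of -0.96. Neither can be assigned to a gene here.

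**Figure D1:**
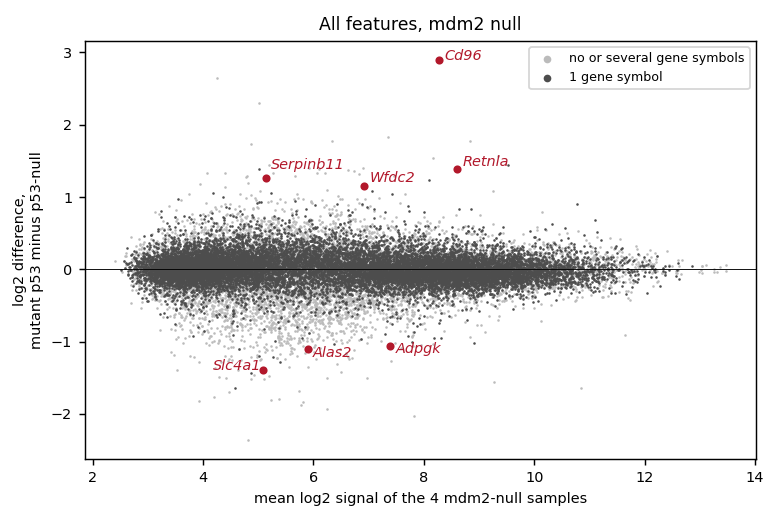
Log2 difference, mutant p53 minus p53-null with mdm2 null, against the mean log2 signal of the 4 samples, for 23332 features (dark, 1 gene symbol; pale, none or several). Most features lie close to 0, and the genes marked in red, among them Cd96 at 2.90 and Alas2 at -1.10, did not pass the test.

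The genes that report on Mdm2 and on p53 activity differed little. Mdm2 had log2 signals of 8.43 and 8.35 in mutant p53 thymi and of 8.28 and 8.40 in p53-null thymi. The groups overlapped, with a difference of 0.06 (SE 0.11, 95% interval -0.20 to 0.31), and all 4 samples lay below the 9.47 to 9.62 of the mdm2 wild-type samples. Cdkn1a, the p21 inhibitor of cyclin-dependent kinases and the classical arrest target of p53, had signals of 5.93 and 5.75 in mutant p53 and of 6.03 and 5.38 in p53-null thymi, a difference of 0.14 (SE 0.23, 95% interval -0.39 to 0.66). Trp53 has no named feature, so the p53 genotype itself was not checked.

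None of the 24 measured p53 targets of arrest and stress was called, and their median difference was -0.08, against 0.01 over all genes. The median was 0.00 without mutant p53 replicate 2 and -0.13 without p53-null replicate 1. Their groups were apart in 1 gene that was higher and 5 that were lower (20.8%). Btg2, an antiproliferative gene, read 11.12 and 10.94 in mutant p53 and 11.22 and 11.44 in p53-null thymi, a difference of -0.30 (95% interval -0.62 to 0.02). Trp53inp1, which promotes p53-dependent death and autophagy, read 11.09 and 11.37 in mutant p53 against 11.47 and 11.50 in p53-null thymi, a difference of -0.26. In both genes the groups were apart by about 0.1 and the interval reached 0. The widest difference in the list was -0.94 in Ddit4, an inhibitor of mTORC1, but it came from a single sample: the signals were 8.34 and 7.34 in mutant p53 and 7.43 and 10.13 in p53-null thymi.

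Among 16 apoptotic targets of p53 the median difference was -0.01, with 2 members higher and 1 lower without overlap. Casp1, the inflammatory caspase, read 7.29 and 7.10 in mutant p53 and 6.89 and 6.57 in p53-null thymi, a difference of 0.47 (95% interval -0.17 to 1.10). The death receptor gene Tnfrsf10b read 5.36 and 5.34 in mutant p53 and 5.21 and 4.93 in p53-null thymi, a difference of 0.28. The main effectors overlapped between the groups: Bbc3, which encodes PUMA, differed by -0.30, and Pmaip1, which encodes NOXA, by -0.01. Of 16 regulators and relatives of p53, 4 were lower and 0 higher without overlap, with a median of -0.05. Mdm4, the Mdm2 partner that masks the transactivation domain of p53, read 9.24 and 9.16 in mutant p53 against 9.42 and 9.54 in p53-null thymi, a difference of -0.29 (95% interval -0.62 to 0.04). Herc2, a large ubiquitin ligase, differed by -0.24.

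In the Bcl2 family, 1 of 16 measured members was higher and 3 were lower without overlap, and the median was -0.01. Bcl2l11, which encodes BIM, the death trigger of thymocyte negative selection, read 8.59 and 8.26 in mutant p53 and 8.83 and 8.91 in p53-null thymi. Its difference of -0.44 had a 95% interval of -0.78 to -0.11 and did not pass after adjustment (adjusted p = 1, limma). Bmf, another BH3-only gene, read 6.85 and 6.97 in mutant p53 and 7.07 and 7.82 in p53-null thymi, a difference of -0.54 that was set mostly by p53-null replicate 2.

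The genes of sterol synthesis, transcripts that mutant p53 has been reported to induce in breast cells, leaned upward as a list. Of 18 measured members, 0 passed the test, 9 (50%) were wholly higher in mutant p53 thymi against a background of 13.6%, and 1 (5.56%) was wholly lower. Their median difference was 0.22, against 0.01 over all genes, and 15 of the 18 differences were above 0. The mean of the list was 7.58 and 7.46 in mutant p53 and 7.33 and 7.37 in p53-null samples, within the 7.19 to 7.50 of the mdm2 wild-type samples for all but mutant p53 replicate 1. These genes share regulators and samples, so their number is not a count of independent observations. Leaving out any 1 of the 4 samples gave medians of 0.11 to 0.22, the lowest without mutant p53 replicate 1. With wild-type mdm2 the median difference of the list was 0.11.

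Sqle, which encodes squalene epoxidase, the entry to the sterol branch, read 9.12 and 9.02 in mutant p53 and 8.41 and 8.66 in p53-null thymi. The groups were 0.36 apart, and the difference of 0.54 had a 95% interval of 0.08 to 0.99. Hsd17b7, a later reductase of the pathway, read 6.64 and 6.5 in mutant p53 and 6.07 and 6.14 in p53-null thymi, a difference of 0.46 (95% interval 0.11 to 0.82). Nsdhl, Sc5d, Cyp51, Pmvk, Msmo1, the SREBP gene Srebf2 and the sterol carrier gene Stard4 were the others that did not overlap, with differences from 0.20 in Msmo1 to 0.35 in Nsdhl. Dhcr7, the last reductase of cholesterol synthesis, lay in the opposite direction at -0.15. The start region of Hsd17b7 is shown because SREBP proteins can bind E-boxes, the letters CACGTG, of which it holds 1. The window is the 250 bases before the annotated start on the minus strand of RefSeq GRCm38.p6, chr1:169969206-169969455, written 5′ to 3′ with the E-box in capitals. That hexamer, which reads alike on both strands, occurs in 6.02% of the 32851 such windows in the RefSeq table, and its presence says nothing about binding in these samples.
Hsd17b7: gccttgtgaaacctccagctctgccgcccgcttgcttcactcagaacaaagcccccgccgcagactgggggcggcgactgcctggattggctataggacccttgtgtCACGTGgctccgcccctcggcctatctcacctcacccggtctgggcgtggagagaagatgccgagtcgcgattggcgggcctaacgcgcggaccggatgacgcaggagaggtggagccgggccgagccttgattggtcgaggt

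Other genes reported as mutant p53 targets showed no common direction. Of 21 measured, 2 were higher and 2 lower without overlap (9.52% each), with a median of 0.01. The oncogene Myc read 9.64 and 9.46 in mutant p53 and 9.17 and 9.28 in p53-null thymi, a difference of 0.33 (95% interval -0.01 to 0.67). The growth factor receptor gene Igf1r read 7.94 and 7.73 in mutant p53 and 8.09 and 8.14 in p53-null thymi, a difference of -0.28. The multidrug transporter genes Abcb1a and Abcb1b overlapped, at -0.04 and 0.22. Nucleotide synthesis, another reported target, had a median of -0.04 over 16 genes, with 2 higher and 0 lower. Of 18 antioxidant and NRF2 response genes, 2 were higher and 2 lower without overlap, with a median of 0.02. Within that list Hmox1, which encodes the heme-degrading enzyme heme oxygenase 1, read 6.27 and 6.37 in mutant p53 and 6.79 and 6.91 in p53-null thymi, a difference of -0.53 (95% interval -0.93 to -0.13).

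**Figure D2:**
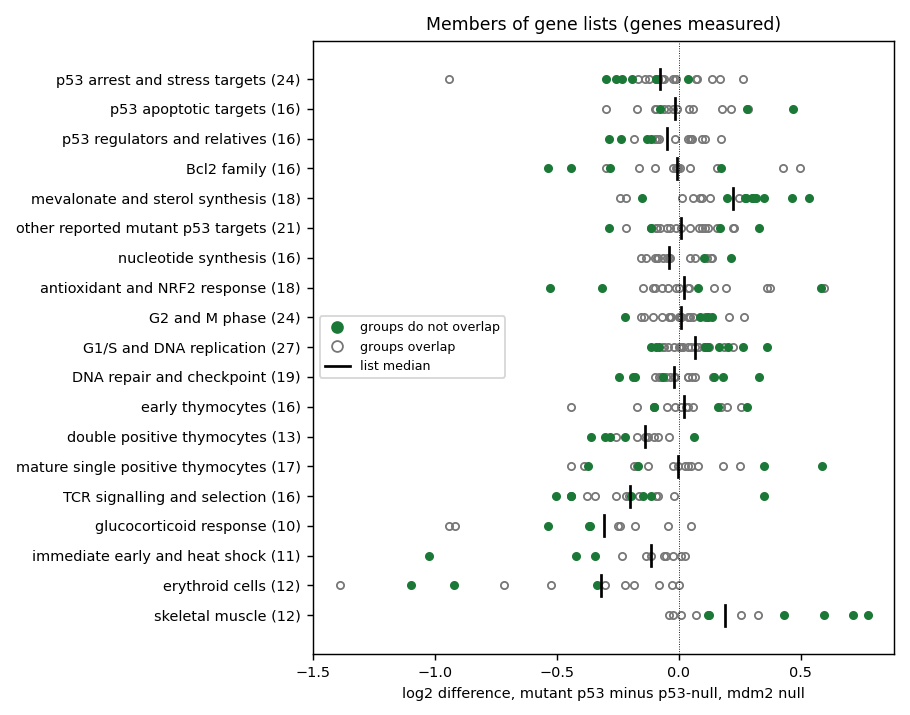
Log2 differences, mutant p53 minus p53-null with mdm2 null, of the measured members of 19 gene lists; a filled point marks a gene whose groups do not overlap and the black bar the list median. The sterol synthesis list has 9 filled points to the right of 0, whereas the p53 target lists centre near 0.

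Among genes outside these lists, the smallest unadjusted p-values on the higher side belonged to Cxcl5, Serpinb11 and Wfdc2. Cxcl5, a chemokine that attracts neutrophils, read 5.05 and 4.68 in mutant p53 and 3.75 and 3.99 in p53-null thymi, a difference of 1.0 (95% interval 0.53 to 1.46, unadjusted p = 0.000897, adjusted p = 1 by limma). The p53-null samples resembled the mdm2 wild-type samples, which reached 4.25. Serpinb11, a clade B serpin, read 6.07 and 5.48 in mutant p53 and 4.39 and 4.63 in p53-null thymi, a difference of 1.27 (95% interval 0.67 to 1.86). Wfdc2, a secreted whey acidic protein of epithelia, read 7.27 and 7.72 in mutant p53 and 6.01 and 6.68 in p53-null thymi, a difference of 1.16 (95% interval 0.59 to 1.72). For these 3 genes the mutant p53 samples also lay above all 6 mdm2 wild-type samples.

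The other genes of smallest p on the higher side had differences between 0.48 and 0.67. Cdkn2b, which encodes the p15 inhibitor of CDK4 and CDK6, read 5.65 in both mutant p53 samples and 5.04 and 5.16 in p53-null thymi, a difference of 0.55. Ly96, the co-receptor of TLR4 for lipopolysaccharide, read 7.77 and 8.18 in mutant p53 and 7.25 and 7.44 in p53-null thymi, a difference of 0.63. Trpm5, the cation channel of taste and tuft cells, read 5.02 and 5.37 in mutant p53 and 4.66 and 4.39 in p53-null thymi, a difference of 0.67. Mccc1, a subunit of the carboxylase of leucine breakdown, read 8.22 and 8.0 in mutant p53 and 7.69 and 7.45 in p53-null thymi. It was the p53-null samples that stood apart there, because the mdm2 wild-type samples read 7.99 to 8.29. Stmn2, a microtubule destabiliser of neurons, differed by 0.54. The olfactory receptor genes Olfr494 and Olfr44 differed by 0.60 and 0.48, at signals under the lower quartile of every sample (4.3 to 4.45).

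The widest separations were larger but rested on genes that vary widely. Cd96, a receptor of T cells and NK cells, read 9.25 and 10.18 in mutant p53 and 6.88 and 6.76 in p53-null thymi, a difference of 2.90 (95% interval 0.60 to 5.20) with a gap of 2.37 between the groups. The same 2 levels appeared among the mdm2 wild-type samples without regard to p53 genotype, at 9.34, 7.39 and 7.18 with mutant p53 and at 7.01, 10.29 and 9.35 without p53. Retnla, a secreted product of alternatively activated macrophages, read 9.17 and 9.43 in mutant p53 and 7.72 and 8.12 in p53-null thymi, a difference of 1.38 (95% interval -0.16 to 2.92). Mmp12, the macrophage elastase, read 7.87 and 7.33 in mutant p53 and 6.62 and 6.41 in p53-null thymi, a difference of 1.08 inside a span of 6.44 to 10.18 among mdm2 wild-type samples. The list of 14 macrophage genes had a median of 0.08 (0.17 without p53-null replicate 1 and -0.07 without p53-null replicate 2), and its mean signals overlapped between the groups.

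On the lower side, Adpgk had the smallest unadjusted p. It encodes the ADP-dependent glucokinase, and read 6.87 and 6.85 in mutant p53 against 7.55 and 8.30 in p53-null thymi, a difference of -1.06 (95% interval -1.62 to -0.50, unadjusted p = 0.00208, adjusted p = 1 by limma). The mutant p53 samples were within the 6.63 to 7.34 of the mdm2 wild-type samples, and the p53-null samples above it. Sema7a, a membrane-anchored semaphorin, read 7.13 and 7.24 in mutant p53 and 7.65 and 8.07 in p53-null thymi, a difference of -0.67. Ccl11, the chemokine eotaxin, read 8.10 and 7.80 in mutant p53 and 8.82 and 8.49 in p53-null thymi, a difference of -0.70. Itgb3, an integrin chain of platelets and osteoclasts, read 6.13 and 5.87 in mutant p53 and 6.74 and 6.43 in p53-null thymi, a difference of -0.59. In none of these 4 genes did the groups overlap. The transcription factor gene Rfx3 differed by -0.50, Insyn2b by -0.60 and the olfactory receptor gene Olfr902 by -0.55. Upk3b, a uroplakin of urothelium and mesothelium, had 1 of the widest gaps, with 4.59 and 4.92 in mutant p53 and 6.41 and 5.67 in p53-null thymi, and a difference of -1.29.

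**Figure D3:**
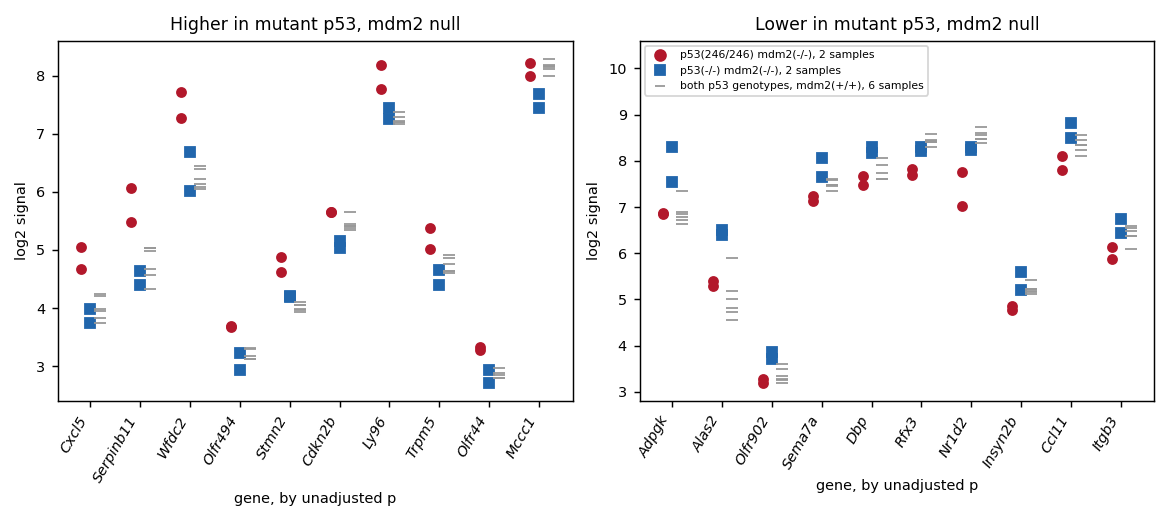
Log2 signal of the 10 genes of smallest unadjusted p in each direction, with mutant p53 mdm2-null samples as red circles, p53-null mdm2-null samples as blue squares and the 6 mdm2 wild-type samples as grey bars. In all 20 genes the red and blue points do not overlap, and no gene passed the test.

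Alas2 combined a wide gap with a small spread. It encodes the erythroid aminolevulinate synthase, the first enzyme of heme synthesis in red cell precursors, and read 5.29 and 5.40 in mutant p53 against 6.5 and 6.39 in p53-null thymi, a difference of -1.10 (95% interval -1.69 to -0.51) with a gap of 0.99. The mdm2 wild-type samples read 4.55 to 5.90. The feature for Hbb-b1 together with Hbb-b2, adult beta globin genes, was looked up after Alas2 and read 9.78 and 10.29 in mutant p53 and 11.94 and 11.42 in p53-null thymi, a difference of -1.64 (95% interval -2.60 to -0.69). Unlike in Alas2, the mutant p53 samples also lay above all mdm2 wild-type samples, which read 7.42 to 8.98 for this globin feature. In a whole-organ sample, fewer cells of a type and less of its RNA per cell cannot be told apart.

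The rest of the erythroid list followed a single sample. The mean over its 12 measured genes was 5.06 and 5.05 in mutant p53 and 6.0 and 5.08 in p53-null thymi, against 4.96 to 5.17 with wild-type mdm2. Slc4a1, the band 3 anion exchanger of red cells, read 4.19 and 4.59 in mutant p53 and 7.08 and 4.48 in p53-null thymi. Rhag, the Rh-associated glycoprotein, read 3.37 and 3.33 in mutant p53 and 5.14 and 3.40 in p53-null thymi. Both were high only in p53-null replicate 1, and both were called when p53-null replicate 2 was left out, at -2.69 in Slc4a1 and -1.79 in Rhag (adjusted p = 0.0222 by limma for each), where the single p53-null sample left is assumed to vary like the other groups. Overall 3 of the 12 genes were lower without overlap (25%), 0 were higher, and the median was -0.32. It was 0.02 without p53-null replicate 1 and -0.84 without p53-null replicate 2. The start region of Alas2 is shown because GATA1, the master regulator of red cell genes, binds GATA motifs. AGATAA was searched on both strands and was found in 9.99% of the 32851 windows. The Alas2 window, chrX:150547167-150547416 on the plus strand of RefSeq GRCm38.p6, holds 1 match on the opposite strand, shown in capitals as TTATCT, and is written 5′ to 3′.
Alas2: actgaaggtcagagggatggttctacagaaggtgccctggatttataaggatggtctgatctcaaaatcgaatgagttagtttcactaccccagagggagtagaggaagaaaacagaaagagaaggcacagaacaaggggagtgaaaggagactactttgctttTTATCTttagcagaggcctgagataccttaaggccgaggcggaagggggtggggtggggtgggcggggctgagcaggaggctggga

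Genes of the circadian clock lay on the lower side. Dbp and Nr1d2 were among the genes of smallest p, and a clock list was added after that was seen, so its count is a description. Dbp, an output activator of the clock, read 7.48 and 7.68 in mutant p53 and 8.31 and 8.18 in p53-null thymi, a difference of -0.67 (95% interval -1.05 to -0.29). Nr1d2, the repressor REV-ERB beta, read 7.03 and 7.76 in mutant p53 and 8.29 and 8.23 in p53-null thymi, a difference of -0.87 (95% interval -1.37 to -0.36). The groups did not overlap in either gene, and the mdm2 wild-type samples read 7.60 to 8.07 in Dbp, between or within the groups, and 8.38 to 8.73 in Nr1d2, above both.

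Of the 14 measured clock genes, 5 (35.7%) were lower and 0 higher without overlap. The 5 include Dbp and Nr1d2, which prompted the list. The median was -0.17, with -0.28 to -0.17 when any 1 of the 4 samples was left out. The period gene Per3 differed by -0.37, and the activator gene Arntl, which peaks opposite to Dbp, by -0.16 with overlap. Per1, a repressor of the clock that glucocorticoids also induce, read 6.77 and 6.53 in mutant p53 and 6.97 and 7.06 in p53-null thymi, a difference of -0.36 (95% interval -0.68 to -0.05). The labels give no hour of collection. The window before a start of Per1, chr11:69098699-69098948 on the plus strand of RefSeq GRCm38.p6, is shown for its E-box, CACGTG, the element through which CLOCK and BMAL1 act, in capitals.
Per1: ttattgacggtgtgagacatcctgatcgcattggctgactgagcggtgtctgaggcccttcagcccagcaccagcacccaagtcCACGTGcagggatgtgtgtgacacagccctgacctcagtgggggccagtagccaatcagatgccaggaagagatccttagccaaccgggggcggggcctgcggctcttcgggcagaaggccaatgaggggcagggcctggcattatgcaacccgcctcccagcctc

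Glucocorticoid response and stress genes leaned the same way, with 1 sample carrying the largest values. Of 10 glucocorticoid response genes, 3 (30%) were lower and 0 higher without overlap, and the median was -0.31. The 3 include Per1, already described with the clock genes, and Nr3c1, the receptor itself. The list mean was 8.48 and 8.19 in mutant p53 and 8.39 and 9.04 in p53-null thymi, so that p53-null replicate 2 stood above the 8.44 to 8.86 of mdm2 wild-type samples. Without that sample the median difference was -0.08, and without each of the others -0.46 to -0.18. Tsc22d3, which encodes the glucocorticoid-induced leucine zipper protein, read 7.37 and 7.15 in mutant p53 and 7.26 and 9.09 in p53-null thymi. Nr3c1, the glucocorticoid receptor, read 9.86 and 9.70 in mutant p53 and 9.97 and 10.33 in p53-null thymi, a difference of -0.37.

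Among chaperones, Dnaja1, an HSP40 partner of HSP70, read 7.69 and 7.75 in mutant p53 and 8.55 and 8.78 in p53-null thymi, a difference of -0.94 (95% interval -1.67 to -0.22) with a gap of 0.80. It varied from 8.15 to 9.46 with wild-type mdm2, so that it was the mutant p53 samples that lay below all others. Hsph1, an HSP110 exchange factor of HSP70, read 8.56 and 8.23 in mutant p53 and 9.04 and 9.79 in p53-null thymi, a difference of -1.02 (95% interval -2.44 to 0.39), inside the 8.16 to 10.36 seen with wild-type mdm2. Of 14 HSP40 and HSP110 genes, a list added after Dnaja1 was seen, 5 were lower and 1 higher without overlap. Dnaja1 itself is counted among the 5. The median of the list was -0.14 and ran from -0.19 without p53-null replicate 1 to -0.04 without p53-null replicate 2. In the list of 11 immediate early and heat shock genes, 3 were lower and 0 higher, with a median of -0.11. That median was -0.32 without mutant p53 replicate 1, -0.29 without p53-null replicate 1 and 0.03 without mutant p53 replicate 2.

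The thymocyte markers Dntt, Cd8a, Cd4 and Rag2 lay above the upper quartile of signal (8.11 to 8.23) in every sample. The marker Ptcra lay below it in every sample. It read 8.07 and 7.62 in mutant p53 and 7.12 and 8.06 in p53-null thymi, with overlap. Dntt, the template-independent DNA polymerase of receptor rearrangement, read 12.02 and 12.09 in mutant p53 and 11.86 and 12.33 in p53-null thymi, with overlap. Cd8a, a co-receptor chain of double positive and CD8 cells, read 12.68 and 12.44 in mutant p53 and 12.57 and 12.80 in p53-null thymi, also with overlap. Of 13 double positive genes, 12 differences were below 0, 4 (30.8%) were lower and 1 higher without overlap, and the median was -0.14. The co-receptor gene Cd4 read 10.74 and 11.04 in mutant p53 and 11.11 and 11.24 in p53-null thymi, a difference of -0.28 (95% interval -0.62 to 0.06). Plxnd1, a plexin that guides thymocyte migration, differed by -0.36. The list mean was 10.30 and 10.38 in mutant p53 and 10.31 and 10.69 in p53-null thymi, so that p53-null replicate 2 alone was high. Without it the median difference was -0.01, and without p53-null replicate 1 it was -0.32.

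Genes of T cell receptor signalling and selection lay mostly on the lower side. Of 16 measured, 15 differences were below 0, 6 (37.5%) were lower and 1 (6.25%) higher without overlap, and the median was -0.20. Pdcd1, the inhibitory receptor PD-1, read 6.95 and 6.38 in mutant p53 and 7.37 and 6.96 in p53-null thymi, a difference of -0.50 (95% interval -0.99 to -0.01) with a gap of only 0.01. Egr2, a transcription factor induced by the receptor, read 7.65 and 7.31 in mutant p53 and 8.08 and 7.76 in p53-null thymi, a difference of -0.44. Cd5, a negative regulator whose level follows signal strength, differed by -0.15. The list means overlapped, at 8.19 and 7.94 in mutant p53 and 8.37 and 8.17 in p53-null thymi. The median ran from -0.33 without mutant p53 replicate 1 to -0.08 without mutant p53 replicate 2.

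Other thymocyte programmes had medians near 0. Mature single positive genes had 2 of 17 higher and 2 lower, with a median of 0. Foxo1, a factor of naive T cell homing and survival, read 8.87 and 8.65 in mutant p53 and 8.53 and 8.29 in p53-null thymi, a difference of 0.35. Gimap6, a GTPase of mature lymphocytes, read 8.78 and 8.82 in mutant p53 and 9.04 and 9.31 in p53-null thymi, a difference of -0.37. Early thymocyte genes had 2 of 16 higher and 1 lower, and the Notch and Myc programme 3 of 15 higher and 0 lower, with a median of 0.05. Cell cycle lists differed little: 6 of 27 genes of G1/S and replication were higher and 3 lower with a median of 0.07, and 4 of 24 genes of G2 and M phase were higher and 1 lower with a median of 0.01. Ccne1, which encodes cyclin E1, read 8.89 and 8.52 in mutant p53 and 8.35 and 8.33 in p53-null thymi, a difference of 0.36. DNA repair and checkpoint genes had 3 of 19 higher and 4 lower, with a median of -0.02. With 1 sample left out, the medians ran from -0.05 to 0.13 for G1/S and replication and from -0.07 to 0.13 for G2 and M phase, lowest without mutant p53 replicate 1 and highest without mutant p53 replicate 2.

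Markers of other tissues were uneven among the 4 samples. The mean over 19 liver genes was 6.81 and 8.08 in mutant p53 and 5.91 and 8.44 in p53-null thymi, against 4.33 to 4.68 with wild-type mdm2. Alb, serum albumin, read 10.97 and 11.84 in mutant p53 and 9.81 and 11.96 in p53-null thymi, and none of the 19 liver genes separated the p53 genotypes. Adipocyte genes, 18 measured, averaged 5.58 and 6.80 in mutant p53 and 6.67 and 5.97 in p53-null thymi, and Ucp1, the uncoupling protein of brown fat, read 5.90 and 9.20 in mutant p53 and 9.37 and 7.24 in p53-null thymi. Liver signal was thus high in the replicates numbered 2 of both genotypes, and adipocyte signal in mutant p53 replicate 2 and p53-null replicate 1. With a liver score as a covariate limma called 0 features, and 1010 had an unadjusted p under 0.05, against 902 without it. Because 0 features were called without the covariate too, this count cannot show a part of the liver signal.

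Skeletal muscle genes leaned upward with mutant p53, at low signal and mostly in mutant p53 replicate 2. Of 12 measured, 6 (50%) were higher and 0 lower without overlap, the median was 0.19, and the list mean was 5.19 and 5.60 in mutant p53 and 5.11 and 5.12 in p53-null thymi. Only mutant p53 replicate 2 lay outside the 4.94 to 5.22 of the mdm2 wild-type samples. Tnnc1, slow troponin C, read 4.31 and 5.18 in mutant p53 and 3.96 and 4.10 in p53-null thymi, a difference of 0.72. Pvalb, which encodes the calcium buffer parvalbumin, read 4.97 and 5.30 in mutant p53 and 4.66 and 4.41 in p53-null thymi, a difference of 0.60. The defining markers Ckm and Acta1 overlapped, with differences of -0.04 and 0.26, and the higher values were those of mutant p53 replicate 2. Without that sample the median was 0.07, and without mutant p53 replicate 1 it was 0.40.

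Among 17 genes of thymic epithelium 4 (23.5%) were higher and 0 lower without overlap, with a median of 0.11. Leaving out 1 of the 4 samples gave medians from 0.07 without mutant p53 replicate 1 to 0.23 without mutant p53 replicate 2. Epcam, the epithelial adhesion molecule, read 9.40 and 8.96 in mutant p53 and 8.66 and 8.64 in p53-null thymi, a difference of 0.53 (95% interval 0.10 to 0.96). Foxn1, the master factor of this epithelium, read 7.23 and 6.71 in mutant p53 and 6.78 and 6.5 in p53-null thymi and overlapped, as did Aire and Krt5. Dendritic cell genes had 2 of 12 higher and 0 lower, among them Clec9a, a receptor for dead cells on cross-presenting cells, at 0.55. Their median was 0.08, and -0.10 to 0.26 with 1 sample left out. B cell genes had 2 of 12 higher and 0 lower, fibroblast and vessel genes 3 of 19 and 0, and granulocyte and mast cell genes 1 of 13 higher and 3 lower. Their medians were 0.02, 0.10 and -0.21. With 1 sample left out these ran from -0.43 to 0.42, from -0.05 to 0.31 and from -0.55 to 0.01. The defining B cell markers Cd79a and Ms4a1 overlapped, with differences below 0, while 7 of the 12 B cell differences were above 0. Interferon response genes had 0 of 14 outside overlap. The part of these cell types in the differences above was not tested.

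**Figure D4:**
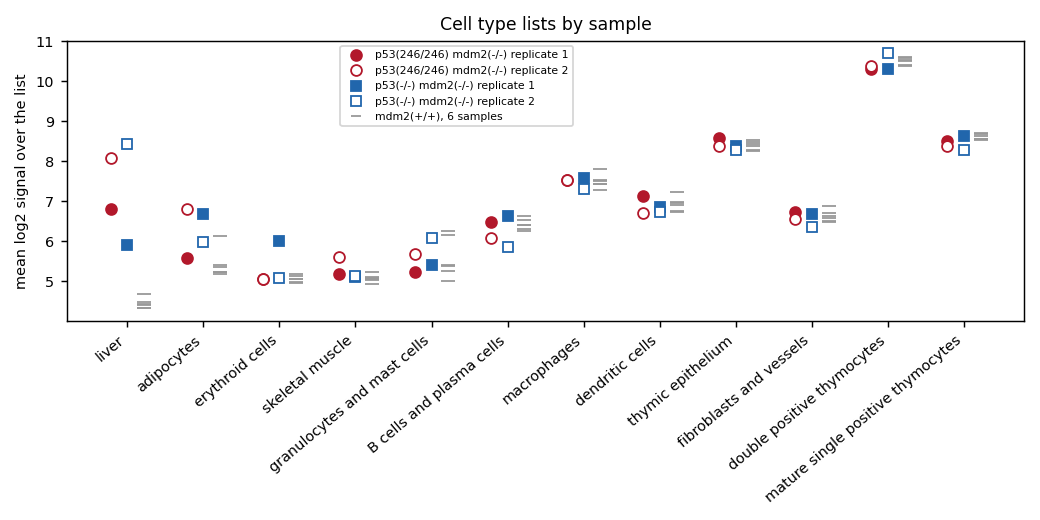
Mean log2 signal over each list of cell type genes, by sample: red circles for mutant p53 and blue squares for p53-null with mdm2 null (filled, replicate 1; open, replicate 2), and grey bars for the 6 mdm2 wild-type samples. Liver genes are above the mdm2 wild-type level in all 4 samples and differ more between replicates than between genotypes, and p53-null replicate 1 is alone in its erythroid signal.

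Whether the p53 difference depends on mdm2 was tested with the difference between its values without and with mdm2. limma called 0 of 23332 features (0%), with a smallest adjusted p of 0.995 and 997 features (4.27%) at an unadjusted p under 0.05. Its standard error had a median of 0.25. With wild-type mdm2 the comparison of mutant p53 with p53-null called 0 features (0%) and had 690 (2.96%) at an unadjusted p under 0.05. Across all features, which are not independent replicates, the log2 differences without and with mdm2 had a correlation of -0.154 and the same sign in 43.5%, although the comparisons share no sample. Of the p53-null samples with mdm2, replicate 1 had a mean of 3.59 over 2 Y-linked genes, where the other 9 samples had 8.49 to 9.35, and without it limma called 0 features for this difference.

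Among genes with a feature of their own, Alas2 had the smallest unadjusted p for this difference. Mutant p53 thymi were lower by 1.10 without mdm2 and higher by 0.67 with it, where the signals were 5.90, 5.19 and 5.01 with mutant p53 and 4.73, 4.55 and 4.81 without p53. The difference of the differences was -1.77 (SE 0.33, adjusted p = 0.995 by limma). Adpgk had -1.38 (SE 0.32), Serpinb11 1.56 (SE 0.34), Cxcl5 1.14 (SE 0.26) and Itgb3 -0.85 (SE 0.21), each with the larger part in the mdm2-null samples. In other genes the larger part lay in the mdm2 wild-type samples. Prag1, a pseudokinase scaffold, read 6.88 and 6.81 in mutant p53 and 6.82 and 6.87 in p53-null thymi without mdm2, and 6.74, 7.21 and 7.35 in mutant p53 and 5.73, 5.94 and 5.69 in p53-null thymi with mdm2. The 3 p53-null samples with mdm2 were the low ones, and the differences were -0.0015 without mdm2 and 1.31 with it (adjusted p with mdm2 = 0.464 by limma). Rab27a, a GTPase of granule secretion, differed by -0.28 without and 0.58 with mdm2, and Eri2, an exonuclease, by 0.19 and -0.78.

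**Figure D5:**
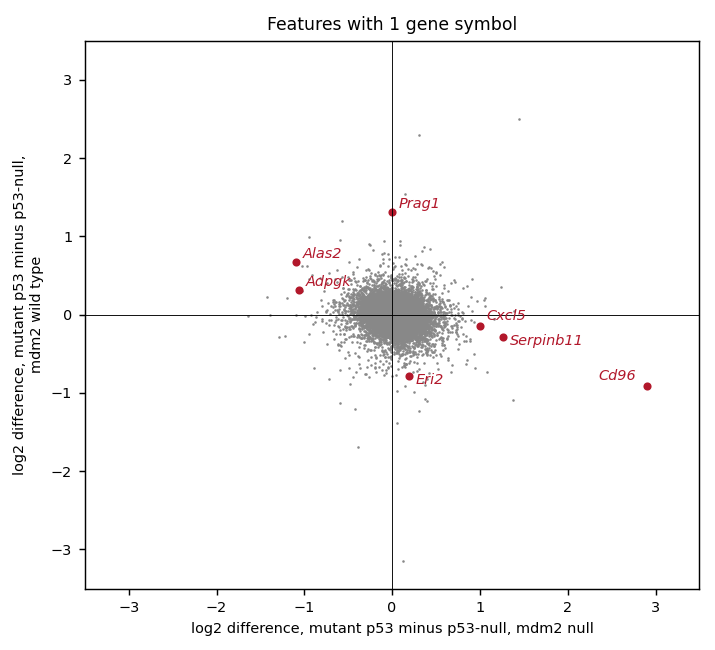
Log2 difference, mutant p53 minus p53-null, with mdm2 null (horizontal) and with wild-type mdm2 (vertical), for the 14996 features with 1 gene symbol. The cloud centres on 0 with no upward slope, and Alas2 and Adpgk lie left of and above 0, Serpinb11 and Cxcl5 right of and below it.

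Genes that lie next to Trp53 and Mdm2 were looked at because an engineered locus carries the flanking chromosome of the strain it was made in. Among the 50 nearest measured genes in order around Trp53, 25 on each side, the groups did not overlap in 13 (26%) and the median size of a difference was 0.09. Differences there ran from -0.36 in Per1 to 0.41 in Slc2a4. Around Mdm2, where all 4 samples carry the null allele, the groups did not overlap in 11 of 50 (22%), with a median size of 0.10. The range there was -0.59 in Msrb3 to 0.64 in Tspan8. Dyrk2, Msrb3, Hmga2 and Tspan8 had 95% intervals that excluded 0. Over all 14847 genes, 209 were higher and 142 lower at an unadjusted p under 0.05 by limma. Over all genes the share without overlap was 26.7% and the median size 0.11, and neither neighbourhood exceeded them in these measures. Both p53 genotypes carry an altered allele, so the groups may share the flanking chromosome around Trp53. Whether it plays a part in the differences was not tested.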

How the data were processed

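Whole-thymus RNA from 10 samples was profiled on Affymetrix whole-transcript arrays after reduction of ribosomal RNA, per the labels' protocols. The authors deposited processed log2 signals for 23332 features. Per the submitters' processing notes, Partek 6.5 and build mm8 were used. Normalization and probe summary are not given in the sources used here. The precision is limited by the number of arrays. Values were used as deposited, with sample medians of 6.10 to 6.26, and 0 columns of values were left out.

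By the platform annotation, 14996 features carry 1 gene symbol, 1019 carry more and 7317 have no symbol. Of the 14996, 14941 matched the RefSeq gene table of GRCm38.p6, used for names, gene order and start regions. A gene with several features was read from the feature of highest mean.

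One mean per group was fitted to all 10 samples with limma 3.58.1 in R 4.3.3 (lmFit, eBayes, two-sided, 6 residual and 2.85 prior degrees of freedom), and p-values were adjusted by Benjamini-Hochberg over all 23332 features with a threshold of 0.05. Scripts were tested on simulated data. Differences are mutant p53 minus p53-null. The fit used no replicate block: with 2 pairs, deviations of same-numbered samples correlated at 0.076, so the numbers were not taken as pairs.

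The rule for named genes took Mdm2 and Cdkn1a, and in each direction the 10 genes of smallest unadjusted p and the 5 of widest gap between groups. It added the 2 members of smallest p in each of 33 lists and the cell type markers (29 of 33 measured). Last came the 5 genes in each direction of smallest p for the difference between mdm2 backgrounds. The text gives only a part of the genes that the rule selected. Other genes given with values were chosen after these were seen. The comparison, the members and the lists, which cover 506 measured of 624 genes, were chosen with earlier results of these data known. The clock and HSP40 and HSP110 lists were added after the values were seen. Alternatives were median centring, quantile normalization, filters on dim features, a variance trend, no moderation, a replicate block, a liver covariate, the 4 mdm2-null samples alone, features with 1 symbol only, and leaving out each sample.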

Additional observations from a re-analysis of the deposited data

How the results depend on the processing

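In all alternatives with the 10 samples, with the 4 mdm2-null samples alone or with features of 1 symbol only (added after seeing the data), limma called 0 features. The fit with the replicate block also called 0 features for the p53 comparison, with 877 at an unadjusted p under 0.05. Leaving out each sample in turn gave 0 to 5 calls for the p53 comparison, 0 to 2 for the difference between mdm2 backgrounds and 0 to 2 for list members. The calls came without p53-null mdm2-null replicate 1 (5), without p53-null mdm2-null replicate 2 (4, with the list members Slc4a1 and Rhag) and, for the difference between mdm2 backgrounds, without these (2 and 1) or the third p53-null sample with wild-type mdm2 (1). Of the named genes 1 was called, Slc4a1 at -2.69 without p53-null mdm2-null replicate 2. The number of features at an unadjusted p under 0.05 was compared among fits of all features with at least 2 samples in each group. It ran from 719 with the 4 mdm2-null samples alone to 1051 without p53-null replicate 1 with wild-type mdm2. Without the dimmer 50% of features it was 458, but out of a smaller total. Of 2332 values for the 119 named genes over 20 alternatives, 52 had the opposite sign. The 20 genes of smallest p kept their direction in all. They were picked from these values and their groups do not overlap, so that leaving out a sample could not reverse them. The cause of the leave-one-out calls was not tested. Deposited values carry no detection calls, so differences of genes near the lower end of the signal are limited by background.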

Other observations

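Some features with several gene symbols, outside the rule for named genes and picked for their values, had differences as wide as those of single genes, none of which passed. A feature of the proteasome activator genes Psme2 and Psme2b read 7.46 and 7.18 in mutant p53 and 6.58 and 5.30 in p53-null thymi without mdm2, a log2 difference of 1.38 (95% interval 0.62 to 2.14). The lower of these p53-null values was that of replicate 2. Another feature of the same genes read 6.86 and 6.5 in mutant p53 and 5.45 and 6.38 in p53-null thymi, a difference of 0.76, and with mdm2 the features went opposite ways, at -0.51 for the first and 0.73 for the other. A feature of Myl4, Lin52 and Gm7020 read 6.17 and 7.08 in mutant p53 and 5.18 and 5.27 in p53-null thymi, a difference of 1.40 (95% interval 0.60 to 2.21). A feature of the aldehyde dehydrogenase genes Aldh3b2 and Aldh3b3 read 5.04 and 5.22 in mutant p53 and 4.23 and 4.56 in p53-null thymi without mdm2. With mdm2 the same feature read 4.57, 3.95 and 4.2 in mutant p53 and 5.12, 5.08 and 5.14 in p53-null thymi. The order of the p53 genotypes was thus opposite in the mdm2 backgrounds, without overlap in either, with differences of 0.73 and -0.88, an unadjusted p below that of Alas2 and an adjusted p of 0.995 for the difference between them by limma. Rab6b, a GTPase of retrograde transport, read 3.84 and 3.69 in mutant p53 and 7.11 and 3.70 in p53-null thymi without mdm2, and 3.64 to 3.86 with mdm2, so that p53-null replicate 1 alone was high.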
